A study of Mus musculus with 8 samples.

Results

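The genes described here are Ctnnb1, which encodes beta-catenin and was the gene targeted for deletion, and 9 genes whose products degrade beta-catenin or act with it on DNA. These 10 genes were chosen by name from textbook knowledge of the pathway, with earlier results of these data known, out of 56748 genes in the count table. All 10 had 1 Ensembl identifier each and passed the filter on low counts that left 21508 tested genes. The degradation members are Apc, Axin1, Gsk3b, Csnk1a1 and Btrc. The transcription members are Bcl9, Pygo2, Tcf7l1 and Tcf7l2.

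In cells without a Wnt signal, the scaffold proteins APC and Axin hold beta-catenin beside the kinases CK1 alpha and GSK3 beta, and the phosphorylated protein is recognised by the ubiquitin ligase adaptor beta-TrCP and destroyed. Wnt binding stops this complex, beta-catenin reaches the nucleus, and there it joins TCF and LEF factors, with BCL9 and Pygopus attached to it as coactivators. TCF factors without beta-catenin hold target genes down together with Groucho (TLE) corepressors. Beta-catenin also links cadherins to the cytoskeleton. The pathway is known to be needed in tooth mesenchyme for root and dentin formation.

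RNA was sequenced from tdTomato-positive cells sorted from the lower molars of mice at postnatal day 10, after tamoxifen at day 3. The 4 control libraries (cHet) have the genotype Ctnnb1(+/-) and the other 4 (cKO) Ctnnb1(-/-), so the controls carry a conditional loss of Ctnnb1 as well and no library with both copies intact was analysed here. The Cre driver, the deleted exons and the number of animals per library are not stated in the labels or files used here. Each p therefore speaks only of the spread among libraries, and that spread may be technical. The labels name dental pulp as the tissue and CXCL12-positive apical papilla as the cell type, while the protocol speaks of dental follicle cells. The libraries carry the column names cHet8, cHet11, cHet12 and cHet14, and cKO7, cKO9, cKO14 and cKO15.

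Total counts lay between 44444033 and 50051392 per library. Markers of several cell types were abundant in the sorted material, and the levels of some moved with genotype. Cxcl12, the chemokine gene that names the sorted cells, stood at 66.4 to 268 CPM in cHet (CPM is a gene's count scaled to the library total, with TMM factors) and 491 to 1001 CPM in cKO, yet Omp, which defines mature olfactory neurons, stood at 1739 to 3940 and 1927 to 2219 CPM, and the ameloblast gene Ambn at 1374 to 6863 and 2824 to 4990 CPM. In the edgeR fit over all tested genes, the log2 difference of Cxcl12 between cKO and cHet was 2.47 (SE 0.46, adjusted p = 0.0497). All 12 general mesenchyme markers were above 0 in every library. Their summed level was 3544 to 11810 CPM in cHet and 13410 to 26140 CPM in cKO, and their mean log2 CPM, the mesenchyme score, was 1.32 higher in cKO (exact permutation p = 0.0286, the smallest that 4 against 4 libraries allow, 0.114 adjusted over 8 marker lists). The 7 apical papilla markers, the labelled cell type, summed to 283.9 to 872.8 CPM in cHet and 1429 to 3517 CPM in cKO, with a score 1.75 higher in cKO (same exact permutation p and adjusted p). The summed level of the 10 olfactory markers was 6515 to 11820 CPM in cHet and 5584 to 7031 in cKO. The 6 immune markers summed to 126.4 to 10770 CPM in cHet, with cHet12 the highest, and to 102.3 to 513.9 CPM in cKO. In such bulk samples, fewer cells of a type and less RNA per cell cannot be told apart.

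The sequences in front of 3 genes are shown because TCF factors, which these genes encode or act through, recognise the core CTTTG, and because the groups did not overlap for the first pair (of which only Tcf7l1 passed the test) while they did for Ctnnb1. Each is the 250 bases before the most upstream RefSeq start (build GRCm38.p6), 5′ to 3′ on the gene's own strand. CTTTG on either strand (CAAAG on the strand shown) is in capitals. The windows lie at chr6:72789046-72789295 on the minus strand for Tcf7l1, chr19:55741560-55741809 on the plus strand for Tcf7l2, and chr9:120933150-120933399 on the plus strand for Ctnnb1.
Tcf7l1: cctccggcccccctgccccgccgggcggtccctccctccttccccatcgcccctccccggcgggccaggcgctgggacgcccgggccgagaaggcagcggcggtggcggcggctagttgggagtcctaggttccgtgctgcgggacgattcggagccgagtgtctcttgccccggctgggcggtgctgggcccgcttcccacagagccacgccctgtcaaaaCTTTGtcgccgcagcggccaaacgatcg
Tcf7l2: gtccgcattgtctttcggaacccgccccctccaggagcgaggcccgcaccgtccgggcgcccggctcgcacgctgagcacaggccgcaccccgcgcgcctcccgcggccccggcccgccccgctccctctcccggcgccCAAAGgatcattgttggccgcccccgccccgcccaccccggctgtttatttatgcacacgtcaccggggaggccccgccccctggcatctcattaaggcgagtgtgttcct
Ctnnb1: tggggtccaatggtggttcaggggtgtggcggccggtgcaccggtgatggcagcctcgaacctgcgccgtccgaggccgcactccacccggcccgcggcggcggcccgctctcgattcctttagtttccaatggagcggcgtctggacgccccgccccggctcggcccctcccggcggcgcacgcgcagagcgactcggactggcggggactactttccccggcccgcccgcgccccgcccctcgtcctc
The core stood once before Tcf7l1, beginning 28 bases ahead of the start, and once before Tcf7l2, 111 bases ahead. The Ctnnb1 window held none. A match is only a match of letters, and 48.6% of all 32851 windows of this length held the core. RefSeq windows were found for 6 of the 10 genes, and not for Axin1 or Btrc, whose groups did not overlap either. Of the 10 windows found, 5 held CTTTG, among them that of Gsk3b and 1 of Pygo2, genes whose groups overlapped. Only the Gsk3b window held the longer CTTTGA, which 13.8% of all windows held. The 3 printed windows were rich in G and C (73.6%, 72.8% and 74.8%, against a median of 52.4% over all windows).

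The plot of the 10 genes by library shows 2 patterns. The levels of Ctnnb1, Apc, Gsk3b, Csnk1a1, Bcl9 and Pygo2 overlapped between the genotypes. Those of Axin1, Btrc and the TCF factor genes Tcf7l1 and Tcf7l2 were higher in every cKO library than in any cHet library, for Axin1 by a small gap. Of the 10 genes, 1 was called higher and 0 lower at an edgeR quasi-likelihood adjusted p under 0.05 over all tested genes, where 1.08% of all tested genes were called higher and 0.0558% lower. An unadjusted p under 0.05 was reached by 3 of the 10, against 17.1% of all tested genes. The groups did not overlap for 4 of the 10, all with cKO above cHet, against 6.46% of all tested genes in that direction, 3.68% with cKO below cHet and 10.1% in either. In edgeR 1.13% of all tested genes were called in either direction. DESeq2 called 3 of the 10 higher and 0 lower (6.79% and 2.71% of all genes it tested), and limma voom 3 and 0 (5.96% and 1.26%). In both tools these 3 were Btrc, Tcf7l1 and Tcf7l2.

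**Figure D1:**
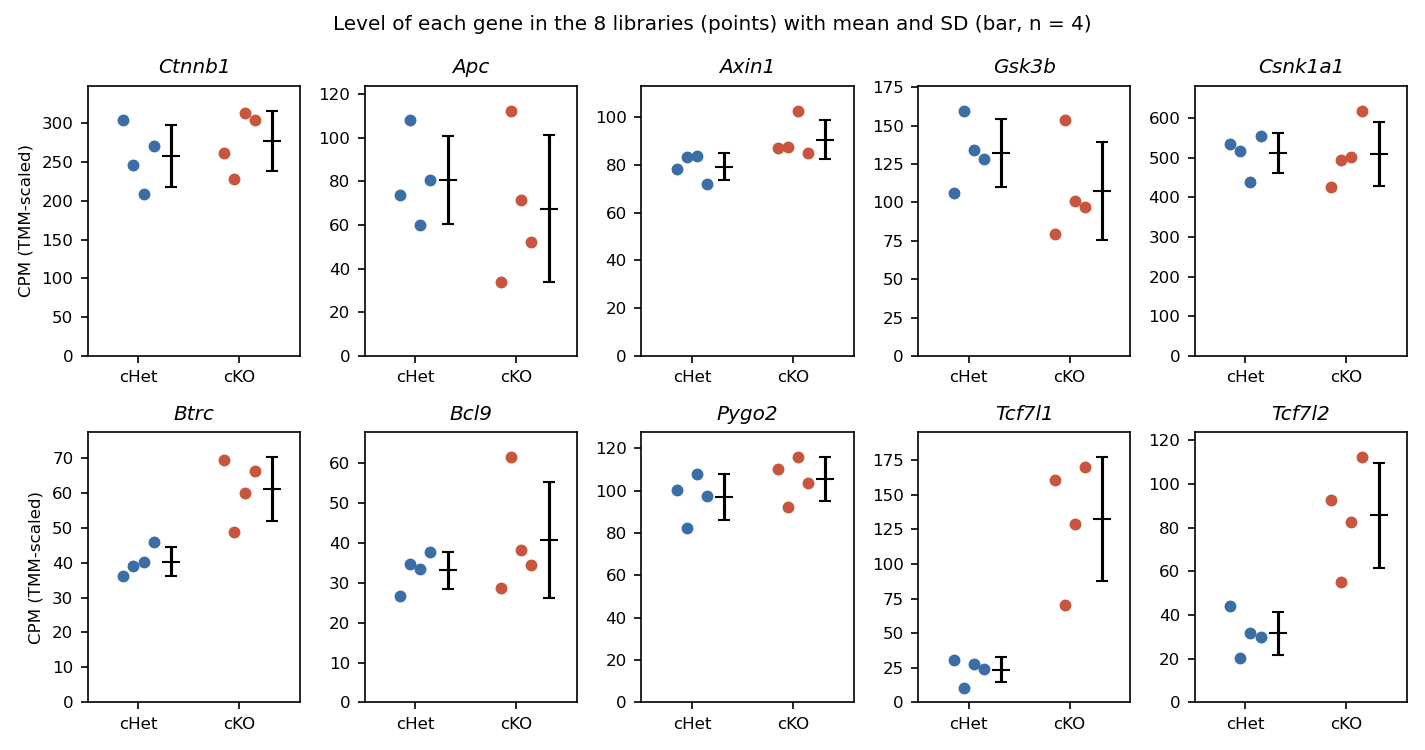
Level of each of the 10 genes in TMM-scaled CPM on linear axes from 0, with 1 point per library in the order of the column numbers and the mean and SD of 4 libraries beside them. The cKO points of Tcf7l1 (70.4 to 170 CPM) lie above all cHet points (10.5 to 30.8 CPM), while those of Ctnnb1 overlap.

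The level of the targeted gene Ctnnb1 (ENSMUSG00000006932.18) was 304 CPM in cHet8, 246 in cHet11, 209 in cHet12 and 271 in cHet14. In the cKO libraries it stood at 262 CPM in cKO7, 229 in cKO9, 313 in cKO14 and 305 in cKO15. Both groups thus hold high and low libraries and span nearly the same range. The log2 difference was 0.11 (SE 0.15, edgeR adjusted p = 0.785), and its 95% interval runs from 0.849-fold to 1.37-fold. The counts are sums over the whole gene and the deleted exons are not named, so transcripts that lack them are counted too, and this value cannot check the genotype labels.

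The scaffold genes of the degradation complex differed from each other in how steady they were. Apc, the large scaffold and tumour suppressor gene, stood at 73.7, 108, 59.9 and 80.7 CPM in cHet8, cHet11, cHet12 and cHet14, and at 33.8, 112, 71.3 and 52.4 CPM in cKO7, cKO9, cKO14 and cKO15. Its highest and its lowest library were both cKO, and the coefficient of variation was 49.9% in cKO and 25.0% in cHet. The log2 difference of −0.26 (95% interval −1.05 to 0.54, adjusted p = 0.776) did not pass. Axin1, the scaffold usually present in the smallest amount in the complex, was the steadiest gene of the 10 in both groups, with coefficients of variation of 7.13% and 9.09%. It stood at 78.1, 83.5, 83.9 and 71.8 CPM in cHet and at 86.9, 87.5, 103 and 85.0 CPM in cKO, in the same order of libraries. The groups did not overlap, but the gap between them was small, 83.9 against 85.0 CPM. The log2 difference was 0.19 (SE 0.10, adjusted p = 0.396).

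The kinase genes did not pass. Gsk3b stood at 106, 160, 134 and 129 CPM in cHet and 79.2, 153, 101 and 97.3 CPM in cKO. The lowest cHet library, at 106 CPM, lay above every cKO library but cKO9. The log2 difference was −0.30 (95% interval −0.79 to 0.19, adjusted p = 0.540). Csnk1a1, the gene of the priming kinase CK1 alpha, stood at 535, 515, 439 and 554 CPM in cHet and 425, 493, 501 and 618 CPM in cKO. Its means of 511 ± 50.5 and 509 ± 80.3 CPM (SD, n = 4) were the closest of the 10 genes, and the 95% interval of the difference ran from 0.803-fold to 1.24-fold (adjusted p = 0.992).

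Btrc, encoding the ubiquitin ligase adaptor beta-TrCP, was the degradation member with the largest difference. It stood at 36.2, 38.9, 40.1 and 45.9 CPM in cHet8, cHet11, cHet12 and cHet14. In cKO7, cKO9, cKO14 and cKO15 it stood at 69.4, 48.7, 59.8 and 66.2 CPM. All cKO libraries lay above all cHet libraries, with cKO9 nearest to them. The log2 difference was 0.60 (SE 0.14, 95% interval 0.28 to 0.92, 1.52-fold), with an unadjusted p of 0.00237 that did not pass over all genes in edgeR (adjusted p = 0.0862). It passed with DESeq2 (adjusted p = 0.00732), with limma voom (0.0282) and in edgeR without cKO9 (log2 0.69, adjusted p = 0.0283), which was 3 of 19 other fits. The log2 difference was 0.52 (adjusted p = 0.855) with the mesenchyme score in the fit and 0.62 (0.808) with the olfactory score, and it turned to −0.79 (0.159) with mesenchyme scaling, where the median of all tested genes was −1.39. Its close relative Fbxw11 stood at 151 ± 4.10 and 153 ± 10.8 CPM (log2 0.02, adjusted p = 0.939). The log2 ratio of Btrc to Fbxw11 was −1.91 ± 0.15 in the cHet libraries and −1.34 ± 0.31 in the cKO libraries (SD over 4 libraries, exact permutation p = 0.0571).

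The coactivator genes overlapped between the groups. Bcl9, the adaptor that binds beta-catenin, stood at 26.8, 34.9, 33.6 and 37.7 CPM in cHet and at 28.6, 61.6, 38.2 and 34.6 CPM in cKO. The 61.6 CPM of cKO9 stood apart, and the log2 difference of 0.29 (SE 0.24, adjusted p = 0.592) was 0.02 without that library (adjusted p = 0.953). Pygo2, the plant-homeodomain protein that Bcl9 links to beta-catenin, stood at 101, 82.3, 108 and 97.6 CPM in cHet and 110, 92.2, 116 and 104 CPM in cKO. Its log2 difference was 0.12 (95% interval −0.15 to 0.39, adjusted p = 0.667).

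Tcf7l1, formerly TCF3 and known mainly as a repressor of Wnt targets, was the member that passed. It stood at 30.8 CPM in cHet8, 10.5 in cHet11, 28.0 in cHet12 and 24.5 in cHet14. In cKO7, cKO9, cKO14 and cKO15 it stood at 160, 70.4, 129 and 170 CPM. The lowest cKO library thus lay more than 2-fold above the highest cHet library. Tcf7l1 rose from 23.5 ± 8.99 to 132 ± 44.8 CPM (SD, n = 4), 5.64-fold (log2 2.50, SE 0.39, 95% interval 1.61 to 3.38, edgeR adjusted p = 0.0376). Of all tested genes, 2.28% had a larger difference in either direction. Tcf7l1 was called in 9 of 19 other fits. Its log2 difference was 1.24 (adjusted p = 0.531) once the mesenchyme score was a covariate and 1.95 (0.618) with the olfactory score. With libraries scaled to mesenchyme markers it was 1.33 (0.0535), where the median of all tested genes was −1.39. Leaving out 1 library kept the log2 difference between 2.25 and 2.70 and ended the call except without cKO9 (0.0173), in fits that called between 0 and 155 of all tested genes higher where the call ended, with adjusted p-values of 0.0531 without cHet8, 0.0716 without cHet11, 0.0884 without cHet12, 0.147 without cHet14, 0.103 without cKO7, 0.126 without cKO14 and 0.120 without cKO15.

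Tcf7l2, formerly TCF4 and an activator or repressor depending on its partners, showed the same order of groups with a smaller difference. It stood at 44.3, 20.3, 31.8 and 30.1 CPM in cHet8, cHet11, cHet12 and cHet14, and at 92.7, 55.0, 82.4 and 112 CPM in cKO7, cKO9, cKO14 and cKO15. As for Tcf7l1, cHet11 was the lowest cHet library, cKO9 the lowest and cKO15 the highest cKO library, and the groups did not overlap. The log2 difference was 1.44 (SE 0.28, 95% interval 0.80 to 2.08, 2.71-fold), just outside the threshold in edgeR (adjusted p = 0.0565). It passed with DESeq2 (0.000204), limma voom (0.0142), a filter of 1 CPM in 4 libraries (0.0483) and without cKO9 (0.0253). The log2 difference was 0.54 (adjusted p = 0.826) once the mesenchyme score was a covariate and 0.87 (0.801) with the olfactory score. With mesenchyme scaling it was 0.17 (0.700), where the median of all tested genes was −1.39.

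**Figure D2:**
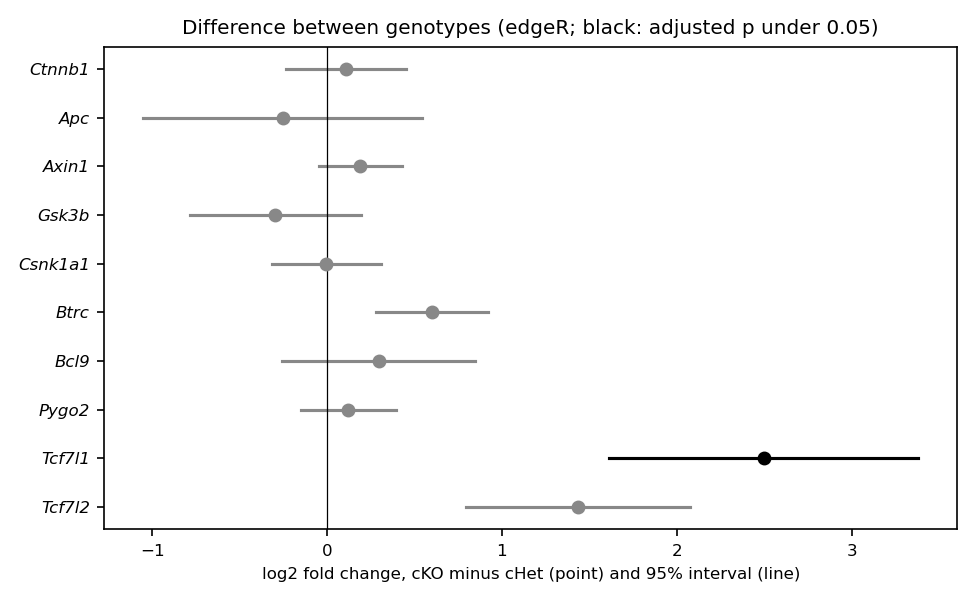
Log2 fold change of the 10 genes between cKO and cHet (points) with its 95% interval (lines) from the edgeR fit over all tested genes. The intervals of Btrc, Tcf7l1 and Tcf7l2 lie above 0, and Tcf7l1 alone, at 2.50, passed after adjustment over all tested genes.

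A ratio of 2 genes within a library does not depend on how libraries are scaled. It can still differ with the mix of cells in each library, which was not tested. Relative to Ctnnb1, Tcf7l1 had a log2 count ratio of −3.55 ± 0.70 in the cHet libraries and −1.13 ± 0.45 in the cKO libraries (SD over 4 libraries), and Tcf7l2 of −3.07 ± 0.41 and −1.73 ± 0.31. For both, all cKO libraries lay above all cHet libraries (exact permutation p = 0.0286 each, 0.129 adjusted over 9 ratios). The ratios of the other 7 members to Ctnnb1 overlapped between the groups, with Btrc nearest to separation (0.48 higher in cKO on the log2 scale, exact p = 0.0571). None of the 9 ratios passed after adjustment, and with 70 assignments of 4 against 4 libraries no fewer than 6 ratios at the smallest p could have passed.

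The levels of the TCF and LEF factor genes relative to each other were compared next. Tcf7l2 counts exceeded Tcf7l1 counts in every cHet library and fell short of them in every cKO library, with log2 ratios of 0.53, 0.95, 0.18 and 0.30 in cHet8, cHet11, cHet12 and cHet14 and of −0.79, −0.36, −0.64 and −0.60 in cKO7, cKO9, cKO14 and cKO15 (exact permutation p = 0.0286). These counts are not corrected for gene length. Per kilobase of merged exons (8775 bases for Tcf7l2, 3924 for Tcf7l1), Tcf7l1 stood above Tcf7l2 in every cHet library too. The order of the 2 genes in cHet thus rests on the length used, while the difference in ratio between the groups does not. The other 2 factors of the family overlapped between the groups, Tcf7 at 79.2 ± 40.9 and 95.1 ± 26.6 CPM (log2 0.26, adjusted p = 0.806) and Lef1 at 41.2 ± 20.9 and 49.1 ± 16.4 CPM (log2 0.25, adjusted p = 0.827). The log2 ratio of Tcf7l1 to Lef1 was −1.07, −0.46, −0.76 and −0.64 in the cHet libraries. In cKO it was 1.46, 1.43, 1.40 and 1.43, an SD of 0.03 over libraries whose Tcf7l1 level itself ranged from 70.4 to 170 CPM. That SD was the smallest in cKO among the 12 ratios of a member to a related gene. Tcf7l1 to Tcf7 gave −1.68 ± 0.32 and 0.45 ± 0.13, Tcf7l2 to Lef1 −0.25 ± 0.50 and 0.83 ± 0.17, and Tcf7l2 to Tcf7 −1.19 ± 0.53 and −0.15 ± 0.07. In these 4 ratios the groups did not overlap (exact permutation p = 0.0286 each, 0.0857 adjusted over 12 ratios of a member to a related gene, a set chosen after the data had been seen).

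Expressed per kilobase of merged exons, Tcf7l1 made up 12.1% to 16.9% of the summed level of the 4 factors in cHet and 36.3% to 41.3% in cKO. Tcf7, the most abundant of them on that scale in cHet, made up 62.1% to 72.7% and 41.3% to 44.9%, and Lef1 9.05% to 11.7% and 6.03% to 6.69%. The share of Tcf7l2 overlapped, at 6.11% to 12.7% and 10.7% to 12.7%. With the longest annotated transcript as length, the Tcf7l1 share was 11.7% to 15.6% and 33.5% to 38.2%. Shares of 1 total move against each other, so these values are given without a test.

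**Figure D3:**
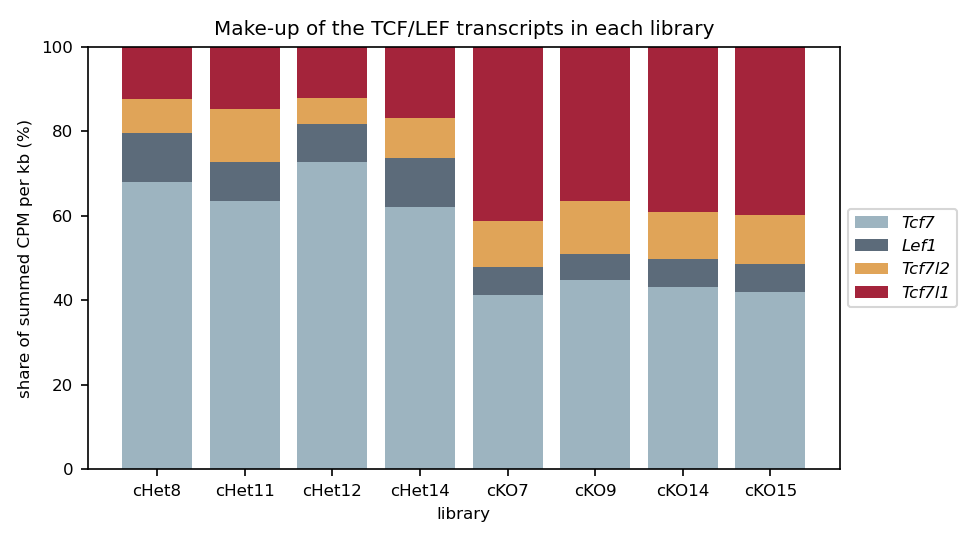
Share of each of the 4 TCF/LEF genes in their summed CPM per kilobase of merged exons, in percent, 1 bar per library. The Tcf7l1 share is at most 16.9% in the cHet libraries and at least 36.3% in the cKO libraries.

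The remaining 8 ratios of a member to a related gene overlapped between the groups. The ratio of Ctnnb1 to Jup, the gene of its paralogue plakoglobin, was −0.26 ± 0.32 in cHet and 0.07 ± 0.55 in cKO on the log2 scale (exact permutation p = 0.343). Bcl9 to Bcl9l gave 1.89 ± 0.70 and 1.01 ± 0.20 (exact p = 0.0857), Gsk3b to Gsk3a 1.46 ± 0.33 and 1.04 ± 0.24 (exact p = 0.114), and Pygo2 to Pygo1 −1.29 ± 0.31 and −0.88 ± 0.29 (exact p = 0.143).

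Compared per kilobase of merged exons, Ctnnb1 (40.2 to 60.3 CPM per kb over the 8 libraries) and Csnk1a1 (40.5 to 58.9) were the most abundant of the 10 and did not differ beyond their spread. Pygo2 (22.7 to 31.9) and Axin1 (18.8 to 26.9) came next. Pygo2 overlapped between the groups. Axin1 did not, by a small gap (at most 21.9 in cHet and at least 22.2 in cKO). Tcf7l1 spanned the widest range, from 2.68 in cHet11 to 43.3 in cKO15, so its place in the order depended on the group. Gsk3b (8.05 to 16.3), Tcf7l2 (2.31 to 12.8), Apc (2.10 to 6.98), Bcl9 (3.17 to 7.29) and Btrc (2.14 to 4.11) were lower. With the longest transcript as length, Csnk1a1 ranked first and Btrc rose from the tenth to the sixth place, so these ranks rest on the length used.

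The wider pathway was read from 5 lists, 71 further genes in all, of which 70 matched a symbol and were tested. In edgeR 3 were called higher and 0 lower, against 1.08% of all tested genes called higher, and 13 had an unadjusted p under 0.05, near the 17.1% of all tested genes. The median log2 difference was 0.07 over these genes and 0.16 over the 10 members, beside −0.03 over all tested genes. The groups did not overlap for 9 of the 70, all with cKO higher, against 6.46% of all tested genes in that direction and 10.1% in either.

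The 3 called genes were Dact1, Dact3 and Tle2. Dact1, a Dishevelled-binding protein that modulates Wnt signalling, stood at 56.0, 35.4, 44.6 and 41.7 CPM in cHet8, cHet11, cHet12 and cHet14 and at 292, 150, 273 and 316 CPM in cKO7, cKO9, cKO14 and cKO15. It rose 5.81-fold (log2 2.54, SE 0.25, adjusted p = 0.0162). Its relative Dact3 rose from 29.5 ± 3.31 to 73.0 ± 15.8 CPM (log2 1.31, adjusted p = 0.0328). Tle2, a Groucho corepressor that TCF factors bind, stood at 63.1, 19.3, 56.5 and 35.7 CPM in cHet and 194, 123, 177 and 193 CPM in cKO, and rose 3.93-fold (log2 1.97, SE 0.35, adjusted p = 0.0471). In each of these 3 genes cKO9 was the lowest cKO library and cHet11 the lowest cHet library, as for both TCF genes. Dact1 and Dact3 were each called in 10 of 19 other fits and Tle2 in 8. None was called when the mesenchyme score was a covariate (log2 1.87, 0.88 and 0.83, adjusted p = 0.266, 0.539 and 0.539), with the olfactory score (2.01, 1.04 and 1.43, adjusted p = 0.446, 0.60 and 0.707) or with mesenchyme scaling (1.20, −0.04 and 0.87, adjusted p = 0.054, 0.936 and 0.0741). Mesenchyme scaling put the median of all tested genes at −1.39. Leaving out cHet11, cHet12, cHet14, cKO7, cKO14 or cKO15 ended all 3 calls, with adjusted p-values from 0.0506 to 0.112 for Dact1, 0.0765 to 0.134 for Dact3 and 0.0751 to 0.159 for Tle2, and leaving out cHet8 ended that of Tle2 (0.0546).

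Of the regulators of the degradation complex, 2 of 14 were thus higher and 0 lower. Dvl2, a Dishevelled protein that relays the Wnt signal, stood at 43.3 ± 3.93 and 58.4 ± 2.40 CPM without passing in edgeR (log2 0.43, adjusted p = 0.0897, but 0.00257 with DESeq2 and 0.0331 with limma voom), and the tankyrase gene Tnks2, whose product marks Axin for destruction, at 165 ± 13.8 and 242 ± 61.7 CPM (log2 0.55, adjusted p = 0.185). Others of the list had negative differences. Nkd1, a Dishevelled-binding antagonist of the pathway, stood at 77.4, 32.9, 61.5 and 53.1 CPM in cHet and 34.0, 15.8, 32.6 and 36.4 CPM in cKO, with overlapping groups (log2 −0.92, unadjusted p = 0.0200, edgeR adjusted p = 0.205). It was called lower without cHet11 and cKO9 (log2 −0.90, adjusted p = 0.0465), and its log2 difference was −1.96 (adjusted p = 0.206) once the mesenchyme score was a covariate. Its relative Nkd2 stood at 49.6 ± 15.3 and 31.9 ± 9.14 CPM (log2 −0.64, adjusted p = 0.302).

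Among 20 other degradation genes edgeR called 0, none had an unadjusted p under 0.05, and DESeq2 and limma voom called none of them. Their median log2 difference was 0.03. The 4 with the smallest p were Amer2 (log2 −0.46) and Amer1 (0.34), which recruit APC to the membrane, and the casein kinase genes Csnk1g2 (0.15) and Csnk1g3 (0.23), with adjusted p-values between 0.416 and 0.459.

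Among 14 other transcription factors and coactivators edgeR called 0, and 3 had an unadjusted p under 0.05. Carm1, an arginine methyltransferase that acts as a coactivator, stood at 55.7 ± 11.1 and 91.9 ± 12.8 CPM (log2 0.72, adjusted p = 0.0916), and Tbl1x, a WD-repeat cofactor, at 93.7 ± 7.24 and 134 ± 24.8 CPM (log2 0.52, adjusted p = 0.137). Both passed with DESeq2 (0.0101 and 0.0485) and limma voom (0.0231 and 0.0458). Bcl9l, the relative of Bcl9, stood at 9.64 ± 4.80 and 21.0 ± 10.2 CPM (adjusted p = 0.236), and Pygo1, the relative of Pygo2, at 238 ± 28.0 and 195 ± 24.7 CPM (log2 −0.29, adjusted p = 0.304).

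Besides Tle2, no other of the 16 tested corepressors and nuclear inhibitors was called in edgeR. Ctnnbip1, whose small product ICAT blocks the binding of TCF to beta-catenin, stood at 94.8 ± 8.80 and 142 ± 28.9 CPM with groups that did not overlap (log2 0.58, adjusted p = 0.123, 0.0361 with DESeq2 and 0.0426 with limma voom). Cby1, encoding the beta-catenin antagonist Chibby, stood at 120 ± 10.4 and 103 ± 5.40 CPM (log2 −0.23, adjusted p = 0.284), and Ctbp2, a corepressor gene, at 35.5 ± 5.43 and 45.0 ± 7.84 CPM (log2 0.34, adjusted p = 0.353). Among the paralogue and adhesion partners edgeR called 0 of 6 and 2 had an unadjusted p under 0.05. These were Cdh11, a mesenchymal cadherin, at 291 ± 130 and 871 ± 376 CPM (adjusted p = 0.119, 0.00606 with DESeq2 and 0.0276 with limma voom), and the p120-catenin gene Ctnnd1 at 14.5 ± 1.99 and 20.9 ± 1.86 CPM (adjusted p = 0.169, 0.0221 with DESeq2 and 0.0637 with limma voom). The level of Jup was 307 ± 39.3 and 272 ± 81.0 CPM (adjusted p = 0.734), that of the epithelial cadherin gene Cdh1 66.9 ± 14.6 and 49.3 ± 23.3 CPM (adjusted p = 0.565).

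**Figure D4:**
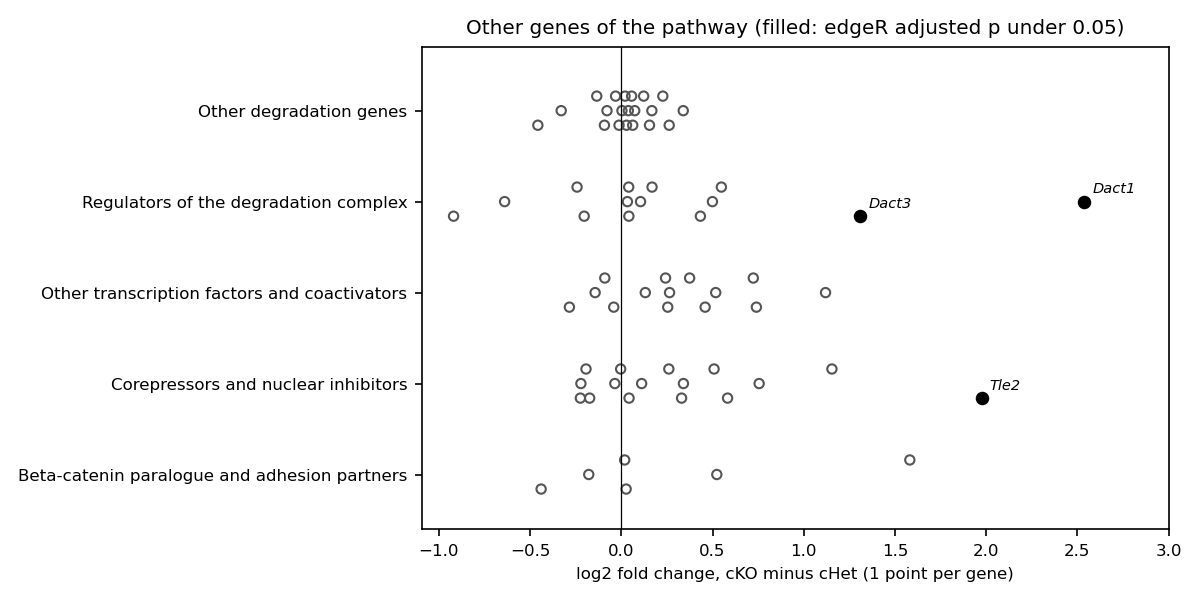
Log2 fold change between cKO and cHet of the 70 tested pathway genes other than the 10 members, 1 point per gene in rows by role, filled where the edgeR adjusted p was under 0.05. The 3 filled points are Dact1 (2.54), Tle2 (1.97) and Dact3 (1.31).

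Single libraries shaped several of these values. Within each group, the library with the lowest mesenchyme score (cHet11 with 6.23 and cKO9 with 8.05, beside 7.15 to 7.86 and 8.43 to 9.01) had the lowest Tcf7l1, Tcf7l2 and Pygo2 and the highest Apc and Gsk3b. cKO9 also had the lowest Ctnnb1 and Btrc and the highest Bcl9 of its group. Without cKO9 the log2 difference of Apc was −0.62 (adjusted p = 0.254) and that of Gsk3b −0.52 (adjusted p = 0.115). Without both cHet11 and cKO9, an omission chosen after the data had been seen, Tcf7l1 stood 2.46 higher (adjusted p = 0.00726) and Tcf7l2 1.43 higher (0.0207) on the log2 scale, so 2 of the 10 genes were called. The mesenchyme scores of the 2 genotypes did not overlap, so a fit with that score as covariate cannot tell the score from genotype. The part of the differing mesenchyme and apical papilla markers in the differences of Tcf7l1, Tcf7l2 and Btrc was not tested.

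**Figure D5:**
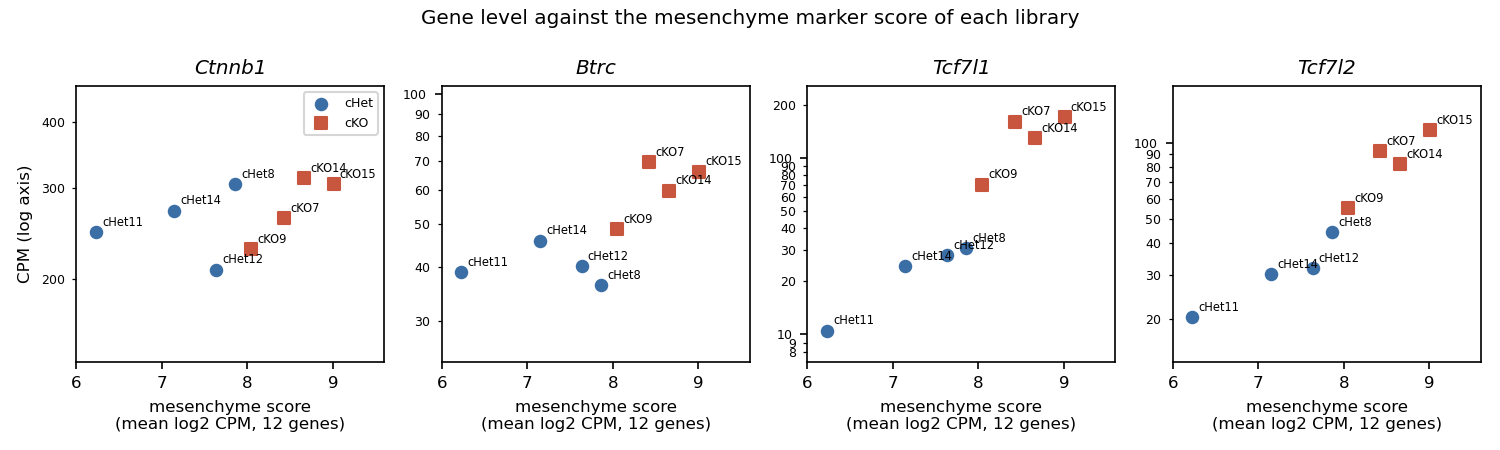
Level of Ctnnb1, Btrc, Tcf7l1 and Tcf7l2 in CPM on log axes against the mesenchyme score, the mean log2 CPM of 12 marker genes, with 1 point per library. Scores of cHet (6.23 to 7.86) and cKO (8.05 to 9.01) do not overlap. The libraries with the nearest scores, cHet8 (7.86) and cKO9 (8.05), stand at 30.8 and 70.4 CPM for Tcf7l1 and 44.3 and 55.0 for Tcf7l2. For Btrc they stand at 36.2 and 48.7 CPM, and for Ctnnb1 at 304 and 229.

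The genes whose pattern over the 8 libraries was most like that of Ctnnb1 were looked for among 12471 other tested genes. These candidates averaged 5 CPM or more and had a symbol that was not a predicted name, such as Gm with a number. By Pearson's r of log2 CPM the most alike were Hbegf (r = 0.981), a growth factor gene of the EGF family, the forkhead factor gene Foxc1 (0.974), Srp72 (0.973), part of the signal recognition particle, the amino acid transporter gene Slc38a4 (0.956) and the RNA helicase gene Ddx5 (0.951). In all, 34 of these candidates had an r over 0.9. These correlations over 8 libraries share depth and cell make-up and are given as a description. Among the 9 other members, the highest r with Ctnnb1 was that of Csnk1a1 (0.594) and the lowest that of Gsk3b (−0.612).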

How the data were processed

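The authors deposited 1 table of whole-number counts per gene, not normalized, for 8 bulk RNA-seq libraries, 4 per genotype. Per the labels' protocols, cDNA came from the SMART-Seq v4 chemistry, which does not mark strand, so reads of antisense genes cannot be told apart. Named in the submitters' processing notes, with no role or order, are STAR, Trim Galore, GRCm39 and mm39. The counting tool, annotation and versions: not given in the sources used here.

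Column names give the group but match no sample title, so columns were assigned to groups only. Identifiers were matched without version to symbols (52073 of 56748 matched), with the identifier of the highest count standing for a symbol. Total counts were 44444033 to 50051392, and the members had 555 to 27777 counts per library, so counting error was small beside the spread between libraries. The members' coefficients of variation within a group ran from 7.13% (Axin1 in cHet) to 49.9% (Apc in cKO). The common biological coefficient of variation over all tested genes was 0.553.

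Tests used edgeR 4.0.16 (R 4.3.3): TMM factors, the default filter by group, the quasi-likelihood test and Benjamini-Hochberg adjustment over all 21508 tested genes, called under 0.05. Levels are CPM scaled with TMM factors. SE, and with it each 95% interval, was approximated as the absolute log2 difference over the square root of F. Ratios used a pseudocount of 0.5 and a two-sided exact permutation test over 70 assignments. A marker score averages log2 CPM (prior count 2) over its list. Alternatives used DESeq2 1.42.0, limma 3.58.1 (voom with quality weights), other factors and filters, the mesenchyme or olfactory score as covariate, mesenchyme scaling, summed identifiers and omission of each library. The analysis was tested on simulated counts.

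The members and lists were chosen with earlier results of these data known. Named genes are the 10 members, Cxcl12, up to 4 genes of smallest p per list and the 5 genes most like Ctnnb1. Tcf7, Lef1, Fbxw11, Gsk3a, Nkd1, Nkd2, Omp and Ambn fall outside it and were picked with their values known. Lengths are from GENCODE M21 on GRCm38 and promoters from RefSeq on GRCm38.p6, another build than that of the counts. No chromosome 18 sequence is shown.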

Additional observations from a re-analysis of the deposited data

Results flagged for a closer look

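Of 60 groups of 4 libraries (30 genes in each genotype), 2 held a library far from the others by Dixon's criterion, where chance alone marks about 1 in 20. Axin1 stood at 103 CPM in cKO14, with the next cKO library at 87.5 CPM. Amer1 stood at 21.0 CPM in cHet12, with the next cHet library at 25.8 CPM.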

How the results depend on the processing

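With 1 of the 10 members and 3 of the 70 pathway genes called higher as reported, the numbers called higher were 3 and 9 with DESeq2, 3 and 8 with limma voom, and 0 and 0 with the mesenchyme score, with the olfactory score and with mesenchyme scaling. These 3 fits called 4, 1 and 2 of all 21508 tested genes higher, so their counts of 0 say nothing particular of the members. An unadjusted p under 0.05 was reached there by 1, 4 and 7 members, against 6.2%, 5.7% and 54.5% of all tested genes, in that order. With a filter of 1 CPM in 4 libraries 2 members were called higher. Without cHet11 and cKO9 2 members and 5 pathway genes were called higher and 1 pathway gene lower, Nkd1. Leaving out 1 library gave 0 to 3 members and 0 to 6 pathway genes, all higher. Of all tested genes those fits called 0 higher without cHet12, cHet14 or cKO14, 4 without cHet11, 8 without cKO7 or cKO15, 155 without cHet8 and 816 without cKO9, so calls were lost across the whole table and not among these genes alone. Signs turned with the mesenchyme score as covariate for Ctnnb1 (−0.11), Apc (0.47), Gsk3b (0.19) and Pygo2 (−0.15), and with the olfactory score for Ctnnb1 (−0.16), Apc (0.10) and Gsk3b (0.035). Mesenchyme scaling moved the median of all tested genes to −1.39, and there Ctnnb1 (−1.29), Axin1 (−1.20), Btrc (−0.79), Bcl9 (−1.04), Pygo2 (−1.19) and Dact3 (−0.04) were negative, each above that median. None of these turned values passed the test, and the cause was not tested. Csnk1a1 was 0.014 without cHet11 and cKO9 and ranged from −0.111 to 0.064 when 1 library was left out. In the same omissions the log2 ratio to Ctnnb1 ranged from −0.011 to 0.205 for Axin1, −0.17 to 0.26 for Bcl9 and −0.051 to 0.163 for Pygo2, and 0 of the 9 ratios passed, as with pseudocounts of 0 and 5. The log2 differences of Tcf7l1 and Tcf7l2 were positive in all 19 other fits. No paired analysis was possible because the replicate numbers of the titles are not in the column names, whose own numbers share only 14 between the groups. Depth does not limit the members, whose lowest count was 555.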
